A study of Mus musculus with 60 samples.

Results

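Posterior (P) and anterior (A) embryonic parts of cultured mouse embryo explants were compared through their RNA. The comparison rests on 4 libraries, out of 6 RNA libraries and 60 samples in the series. They are P with EPZ005687, A with EPZ005687, P with DMSO and A with DMSO, 1 library each. All came from ICR embryos that spent 48 hours in N2B27 medium as explants. EPZ005687 inhibits EZH2, the methyltransferase that places the repressive mark H3K27me3, and the DMSO arm received the solvent. The series as a whole used embryos of 6.5, 7.0 and 7.5 days of gestation, and for the RNA samples neither the stage nor the number of embryos per library is in the labels. Each arm alone has no replicate, so the arms stand in for repeats. A p-value here rests mostly on a spread shared over all genes of these 4 libraries, and does not measure variation between replicates of P or A. A gene was kept as a difference when its P over A ratio had the same sign in both arms.

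In the gastrulating mouse embryo the posterior side carries the primitive streak, through which cells leave the epiblast as mesoderm and endoderm. Mesoderm from the posterior streak forms the allantois, the blood islands and the vessels of the yolk sac, and mesoderm that moves forward forms the heart. The anterior epiblast becomes forebrain and surface ectoderm. Visceral endoderm wraps the embryo, and the part over the extraembryonic region takes up nutrients and secretes serum proteins such as alpha-fetoprotein and apolipoproteins. Which of these tissues a P or an A piece holds depends on where the embryo was divided.

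The libraries held 2173284 counts for P and 1000342 for A with EPZ005687, and 3413049 for P and 1780304 for A with DMSO. A gene at 0 counts may therefore have had up to 3 counts, which is 1.38, 3.0, 0.879 and 1.69 CPM (library total set to 1000000) in the same order. The ribosomal RNA precursor Rn45s took 6.54% of counts in P and 1.44% in A with EPZ005687, against 0.0538% in P and 0.109% in A with DMSO. The Y-linked translation factor gene Eif2s3y had 224.5 CPM in P against 57 CPM in A with EPZ005687 and 0 counts in both DMSO libraries. Another Y-linked gene, Ddx3y, had 127 counts in P and 76 in A with EPZ005687, and 4 in P and 4 in A with DMSO. Xist, which silences 1 X chromosome in female cells, had 6.9 CPM in P against 17 CPM in A with EPZ005687 and 134.5 CPM in P against 188 CPM in A with DMSO. Y-linked RNA was thus plain in both EPZ005687 pieces and at or near 0 counts in the DMSO pieces. The deposited columns carry 1 code for the EPZ005687 arm and another for the DMSO arm, and whatever the code stands for cannot be told apart from the treatment.

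The labels were first set against known markers. T (Brachyury), the transcription factor of the streak and nascent mesoderm, stood at 48.8 CPM in P against 203 CPM in A with EPZ005687 and at 19.3 CPM in P against 0 CPM in A with DMSO. It was thus higher in A in the inhibitor arm and higher in P in the solvent arm. Mixl1, a homeobox gene of the streak, had 0 counts in P and 1 in A with EPZ005687, and 22 counts in P and 4 in A with DMSO, and did not pass the filter on low counts. Eomes, a T-box factor of the streak and of trophoblast, had 19.3 CPM in P against 6.0 CPM in A with EPZ005687 and 0.879 CPM in P against 8.99 CPM in A with DMSO. Cdx2, which marks posterior embryo and trophoblast, had 6.44 CPM in P against 0 CPM in A with EPZ005687, and 0.586 CPM in P against 17.4 CPM in A with DMSO. Of 15 streak genes listed, 3 were tested (T, Eomes and Cdx2), and all 3 pointed opposite ways in the 2 arms. The streak list summed to 107 CPM in P against 232 CPM in A with EPZ005687 and to 29.6 CPM in P against 43.8 CPM in A with DMSO. Of the 15 listed genes, 4 were at 0 counts in P and 3 in A with EPZ005687, and 6 in P and 9 in A with DMSO. The streak markers therefore did not set P above A in both arms, and the pieces are called P and A below as their labels name them. None of the 39 Hox genes in the table passed the filter.

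Markers of the anterior side were mixed. Otx2, a homeobox factor of anterior ectoderm, stood at 33.6 CPM in P against 146 CPM in A with EPZ005687 and 22 CPM in P against 193 CPM in A with DMSO. Pax6, a factor of forebrain and eye, had 19.8 CPM in P against 57 CPM in A with EPZ005687, and 5.86 CPM in P against 181 CPM in A with DMSO. Both P libraries were below both A libraries for these genes, although neither passed the test (edgeR adjusted p = 0.464 for Otx2 and 0.522 for Pax6). The anterior visceral endoderm genes Hhex and Cer1 did not follow them: Hhex was called higher in P (below), and Cer1, a secreted Nodal and BMP antagonist, had 14.7 CPM in P against 8.0 CPM in A with EPZ005687 and 1.17 CPM in P against 9.55 CPM in A with DMSO.

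Across the 11834 genes that reached 10 counts in 2 or more of the 4 libraries, edgeR's quasi-likelihood test with the arm as a block called 22 genes higher in P (0.186% of those tested) and 2 lower (0.0169%), at an adjusted p under 0.05 and with the same sign in both arms. Without adjustment, 504 genes (4.26%) were higher and 169 (1.43%) lower at a p under 0.05. Without any test, 3601 genes (30.4%) were higher in P in both arms, 2897 (24.5%) were lower in both and 5336 (45.1%) had opposite signs. A ratio of 4-fold or more in the same direction in both arms was seen for 330 genes higher in P (2.79%) and for 145 lower (1.23%). The log2 ratios of the 2 arms had a Pearson r of 0.16 across genes, which are not independent replicates. Their SD across genes was 1.47 with EPZ005687 and 1.85 with DMSO. The P libraries were the deeper ones of their arms, and 835 tested genes passed the filter through the P libraries alone, against 137 through the A libraries alone. A gene that passed through P alone had to be low in A, so its direction was largely set by the filter. Of the 22 genes called higher, 16 also reached 10 counts in an A library, and the others were Hbb-bh1, Hba-x, Lgals2, Actc1, Tnni1 and Hhex. Of the 2 called lower, Sp8 passed through the A libraries alone, while Tal2 also reached 10 counts in P with DMSO. Among the 10999 genes that did not pass through P alone, 2839 were higher in P in both arms, 2893 were lower and 122 were at least 4-fold higher in both. The counts given below for gene lists are to be read beside these values over all genes.

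The number of called genes depended on how the counts were treated. DESeq2 called 124 genes higher and 23 lower, with the 24 genes among them, and limma-voom called 50 and 18, with 16 of the 24 among them. Scaling by library totals left 1 call, Hbb-bh1. No gene was called without the treatment block, with a filter of 20 counts, with the ExE libraries in the fit, or when any 1 of the 4 libraries was left out of that wider fit. With 1 residual degree of freedom, a gene's spread is taken mostly from all genes together.

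**Figure D1:**
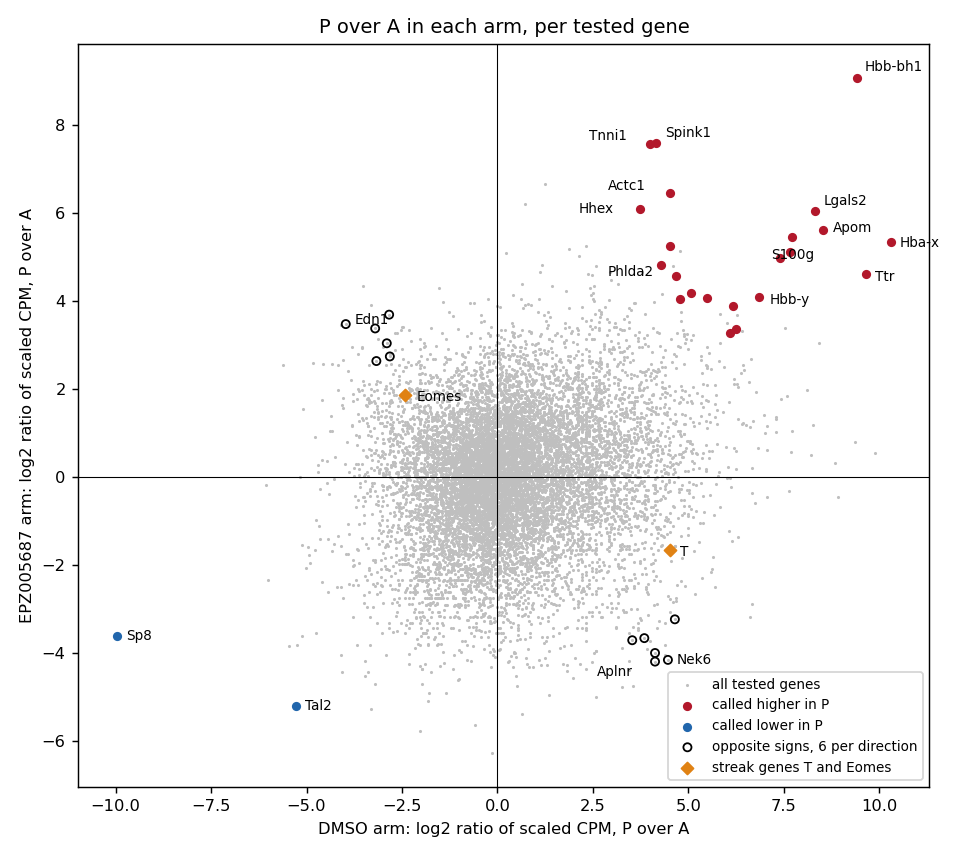
Each point is a tested gene, with its log2 ratio of scaled CPM, P over A, in the DMSO arm (x axis) and in the EPZ005687 arm (y axis). The 22 genes called higher (red) lie in the upper right and the 2 called lower, Sp8 and Tal2 (blue), in the lower left, while T and Eomes (diamonds) and the 12 open circles have opposite signs in the 2 arms.

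Embryonic globins gave the smallest p-value. Primitive red cells, the first blood cells of the embryo, form in the yolk sac and carry the alpha-like zeta globin (Hba-x) with the beta-like globins Hbb-y and Hbb-bh1. All 3 were among the 22 genes called higher in P, and 2 of them, Hbb-bh1 and Hba-x, passed the filter through the P libraries alone. The proximal promoters of Hba-x and Hbb-y are shown because both genes carry, in these windows, letters that the erythroid factors GATA1 (GATAA, on either strand, so TTATC on the other) and KLF1 (CCACCC) are known to bind elsewhere. Each window runs from 250 bases before to 50 bases after the start (RefSeq, GRCm38.p6, 5′ to 3′ on the gene's own strand), and capitals mark these letters. Hba-x lies on the plus strand at chr11:32276350-32276649, and Hbb-y on the minus strand at chr7:103853158-103853457.
Hba-x: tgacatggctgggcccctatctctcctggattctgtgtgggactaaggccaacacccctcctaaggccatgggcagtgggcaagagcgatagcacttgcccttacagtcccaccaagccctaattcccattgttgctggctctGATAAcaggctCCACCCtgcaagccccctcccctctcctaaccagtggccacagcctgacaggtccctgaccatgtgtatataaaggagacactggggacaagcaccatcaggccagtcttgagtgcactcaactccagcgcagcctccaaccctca
Hbb-y: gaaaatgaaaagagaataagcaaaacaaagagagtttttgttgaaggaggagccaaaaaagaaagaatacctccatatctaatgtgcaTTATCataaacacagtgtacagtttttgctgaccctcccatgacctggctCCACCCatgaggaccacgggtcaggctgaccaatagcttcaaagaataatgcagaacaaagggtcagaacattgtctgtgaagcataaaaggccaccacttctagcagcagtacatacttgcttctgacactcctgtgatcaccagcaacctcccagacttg
Each window held 1 GATAA and 1 CCACCC. Of 27025 genes with a RefSeq promoter window of 300 bases, searched on both strands, 28.4% hold GATAA and 34% hold CCACCC in at least 1 of their windows. Of the 22 genes called higher in P, 18 had a window that could be used. Counted in the same way, 8 of these 18 held GATAA and 13 held CCACCC, while 7 held TATAAA (15.7% of the 27025 genes). A match is letters in a window and not a site of binding.

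Hbb-bh1 (chromosome 7, 103841638 to 103843162) had 2019 counts in P and 1 in A with EPZ005687 (929 CPM in P against 1.0 CPM in A), and 5847 counts in P and 3 in A with DMSO (1713 CPM in P against 1.69 CPM in A). Both P libraries thus stood far above both A libraries, where the RNA was at or below the floor of 3 counts. The interval of the log2 ratio that counting error allows (95%, conditional exact binomial) was 7.75 to 15.54 with EPZ005687 and 8.52 to 12.35 with DMSO. The fitted log2 fold change was 10.06 (SE 1.21, edgeR adjusted p = 0.000292).

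Hba-x (chromosome 11, 32276600 to 32278116) had 321 CPM in P against 9.0 CPM in A with EPZ005687 and 5824 CPM in P against 3.93 CPM in A with DMSO (log2 fold change 8.06, SE 1.45, edgeR adjusted p = 0.0129). Its ratio was 46.3-fold with EPZ005687 and 1565-fold with DMSO. Having passed the filter through the P libraries alone, Hba-x had to be low in A. Hbb-y (chromosome 7, 103851754 to 103853207) had 54.8 CPM in P against 3.0 CPM in A with EPZ005687, and 710.5 CPM in P against 5.62 CPM in A with DMSO (log2 fold change 6.04, SE 1.03, edgeR adjusted p = 0.0093). The globin genes are near copies of each other, and how the authors counted reads that fit several copies is not given in the sources used here. The adult globin genes Hba-a1, Hba-a2, Hbb-bs and Hbb-bt were listed at 0 counts in all 4 libraries.

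Summed over the list, globins took 1305 CPM in P against 13 CPM in A with EPZ005687 and 8248 CPM in P against 11.2 CPM in A with DMSO. The extraembryonic (ExE) libraries of the same arms held 34568 CPM with EPZ005687 and 408 CPM with DMSO. P was thus below ExE with EPZ005687 and above ExE with DMSO. In bulk samples, more cells of a type and more RNA per cell cannot be told apart.

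Other red cell genes were less uniform. Of 17 in the list, 10 were tested, 4 of them passing the filter through the P libraries alone. In both arms 7 were higher in P and 0 lower, and none was called; without the members that passed through P alone, 3 of 6 were higher. Lmo2, a cofactor of early blood transcription, had 25.8 CPM in P against 2.0 CPM in A with EPZ005687 and 31.4 CPM in P against 8.43 CPM in A with DMSO. Gfi1b, a repressor needed for red cell maturation, had 19.3 CPM in P against 2.0 CPM in A with EPZ005687, and 19.9 CPM in P against 0.562 CPM in A with DMSO. The mitochondrial iron importer gene Slc25a37 pointed opposite ways, with 10.6 CPM in P against 27 CPM in A in the inhibitor arm and 146.5 CPM in P against 26.4 CPM in A in the solvent arm. Klf1 and Tal1 did not pass the filter.

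Genes of endothelium, the other product of the blood islands, gave no call. Of 20 listed, 15 were tested and 8 of these passed through the P libraries alone. 11 were higher in P in both arms, 0 were lower and 3 were at least 4-fold higher in both. Of the other 7 tested members, which did not pass through P alone, 3 were higher in P in both arms, 0 were lower and the rest had opposite signs. Flt1, a VEGF receptor, had 63.5 CPM in P against 12 CPM in A with EPZ005687 and 50.1 CPM in P against 4.49 CPM in A with DMSO. Cd34, a surface protein of vessels and blood progenitors, had 39.1 CPM in P against 8.0 CPM in A with EPZ005687 and 53.6 CPM in P against 0 CPM in A with DMSO. Kdr, the main VEGF receptor of early vessels, was nearly level, with 25.3 CPM in P against 19 CPM in A and 29.9 CPM in P against 23 CPM in A in the same order. The median log2 ratio of the tested members was 0.86 with EPZ005687 and 3.31 with DMSO (4.13 with genes at 0 counts taken at the floor), against 0.06 and 0.15 over all tested genes. Without the members that passed through P alone it was 0.60 with EPZ005687 and 3.15 with DMSO, against -0.05 and 0.03 over all genes taken in the same way. The medians over all tested genes become -0.29 and 0.07 when counts are scaled by library totals.

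Secreted proteins of visceral endoderm supplied 3 calls, as many as the globins. Of 19 secreted proteins listed, 15 were tested, and 12 of them were higher in P in both arms and none was lower in both. 3 of the tested members passed through the P libraries alone, and 9 of the other 12 were higher in both arms. 3 were called: Apom, Apob and Ttr. The median log2 ratio was 1.05 with EPZ005687 and 6.21 with DMSO, so the median was larger in the solvent arm (1.19 and 6.48 with genes at 0 counts taken at the floor).

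Apom, an apolipoprotein of high-density lipoprotein (chromosome 17, 35128997 to 35131801), had 464 CPM in P against 11 CPM in A with EPZ005687 and 329.6 CPM in P against 0 CPM in A with DMSO. That is 54.7-fold higher in P with EPZ005687 and at least 207-fold higher with DMSO, where A had 0 counts (log2 fold change 7.26, SE 1.15, edgeR adjusted p = 0.00711). Apob, the main protein of very low-density lipoprotein (chromosome 12, 7977629 to 8016839), had 739 CPM in P against 24 CPM in A with EPZ005687 and 289.8 CPM in P against 12.4 CPM in A with DMSO. The fold was close in the 2 arms, 39.96 and 24.8 (log2 fold change 4.97, SE 0.87, edgeR adjusted p = 0.0105). Ttr, the thyroxine and retinol carrier transthyretin (chromosome 18, 20664209 to 20674326), stood at 2298 CPM in P against 120.0 CPM in A with EPZ005687, and 2409 CPM in P against 2.25 CPM in A with DMSO (log2 fold change 7.05, SE 1.38, edgeR adjusted p = 0.0247). For all 3 genes both P libraries lay above both A libraries, and the share of all tested genes that did so was not counted.

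Afp, alpha-fetoprotein and the classic secreted marker of this tissue, showed how far the A pieces differed from each other. It had 3899 CPM in P against 2896 CPM in A with EPZ005687 and 3757 CPM in P against 5.06 CPM in A with DMSO. A with EPZ005687 thus held Afp near the level of both P libraries, while A with DMSO held 9 counts, and the gene was not called (edgeR adjusted p = 0.762). Rbp4, which carries retinol in serum, followed Afp with 663.5 CPM in P against 592 CPM in A with EPZ005687 and 3353 CPM in P against 2.81 CPM in A with DMSO. Trf, transferrin, had 205 CPM in P against 367 CPM in A in the inhibitor arm and 1721 CPM in P against 2.81 CPM in A in the solvent arm, with opposite signs.

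The whole secreted list summed to 9706.5 CPM in P against 4593 CPM in A with EPZ005687, and to 15963 CPM in P against 139 CPM in A with DMSO. The ExE libraries held 30696 CPM with EPZ005687 and 35327 CPM with DMSO, above every P and A library. Of the 19 genes, 0 were at 0 counts in P and 1 in A with EPZ005687, and 1 in P and 6 in A with DMSO, Apom and Apoa1 among the last. How these sums relate to the called genes was not tested.

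**Figure D2:**
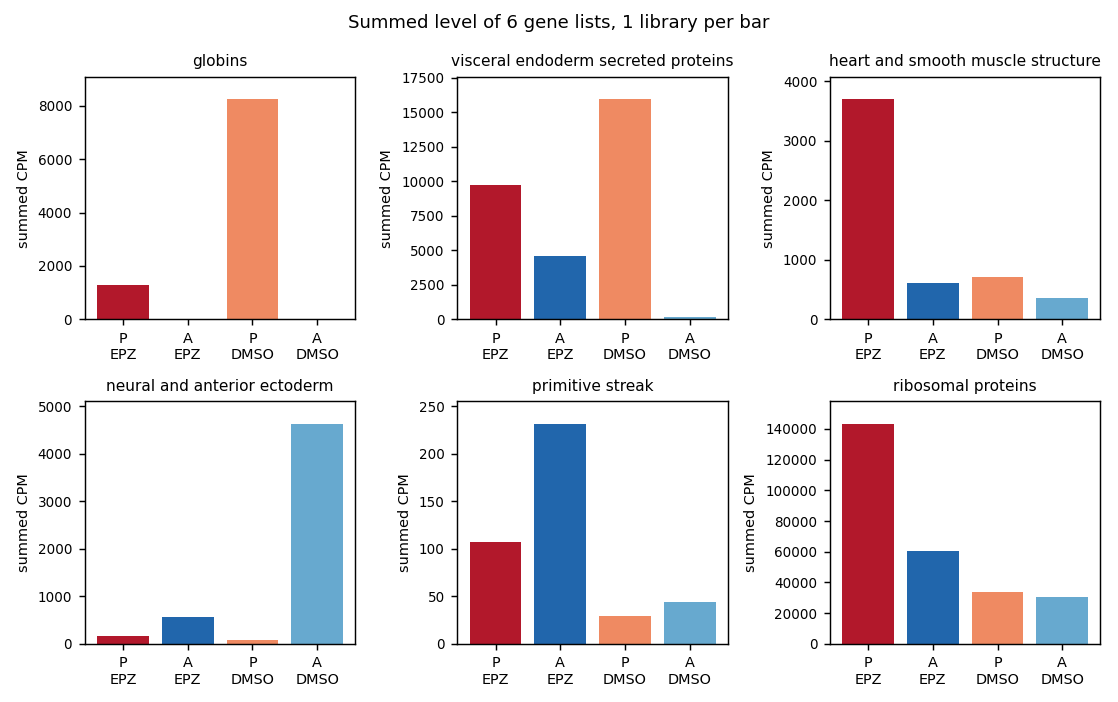
Bars show the summed CPM of 6 gene lists in each of the 4 libraries (P EPZ005687, A EPZ005687, P DMSO, A DMSO), 1 library per bar, each panel with its own axis from 0. Globins are near 0 in both A libraries (13.0 and 11.2 CPM), the secreted visceral endoderm proteins are low only in A with DMSO (138.7 CPM) among the 4, and the streak list is highest in A with EPZ005687 (231.9 CPM).

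Genes for uptake and for the regulation of visceral endoderm added 1 call. All 16 listed were tested, 5 through the P libraries alone. 11 were higher in P in both arms and 1 lower; of the 11 that did not pass through P alone, 6 were higher and 1 lower. Lgals2, a galectin of absorptive epithelia (chromosome 15, 78850860 to 78855529), had 318 CPM in P against 5.0 CPM in A with EPZ005687 and 449 CPM in P against 0.562 CPM in A with DMSO (log2 fold change 7.63, SE 1.09, edgeR adjusted p = 0.00249). Dab2, an endocytic adaptor, had 486 CPM in P against 59 CPM in A in the inhibitor arm, and 606 CPM in P against 37.1 CPM in A in the solvent arm. The endocytic receptor gene Lrp2, which neural ectoderm also expresses, was the member lower in both arms, with 60.7 CPM in P against 137 CPM in A and 87 CPM in P against 337 CPM in A. The lysosomal protease gene Ctsh was called as well (chromosome 9, 90054267 to 90076095), at 207.5 CPM in P against 25 CPM in A with EPZ005687 and 390.0 CPM in P against 4.49 CPM in A with DMSO (log2 fold change 4.88, SE 0.98, edgeR adjusted p = 0.029). Over 18 lysosome enzymes, 8 were higher in P in both arms and the other 10 were higher with DMSO alone.

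Basement membrane genes of parietal endoderm, the outer layer that makes Reichert's membrane, were measured in 11 of 13 listed. 7 were higher in P in both arms (63.6%, against 30.4% of all tested genes), 1 was lower and none was called. Sparc had 726 CPM in P against 269.9 CPM in A with EPZ005687 and 1043 CPM in P against 130.3 CPM in A with DMSO, and Col4a1 had 467 CPM in P against 107 CPM in A with EPZ005687 and 254 CPM in P against 9.55 CPM in A with DMSO. Mesoderm makes both proteins too. Trophoblast markers were low: 4 of 14 were tested, and the list summed to 98 CPM in P against 52 CPM in A with EPZ005687 and 28.7 CPM in P against 61.2 CPM in A with DMSO. The 2 decidua genes in the table did not pass the filter.

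Hhex, a homeobox gene of anterior visceral and definitive endoderm and of blood vessel progenitors (chromosome 19, 37434841 to 37440731), was called higher in P. It had 116 CPM in P against 1.0 CPM in A with EPZ005687 and 10.8 CPM in P against 0 CPM in A with DMSO, the DMSO values resting on 37 counts in P and 0 in A. That is at least 6.8-fold higher with DMSO (fitted log2 fold change 7.21, SE 1.5, edgeR adjusted p = 0.0412). Of the 8 tested genes in the definitive endoderm list, 5 were higher in P in both arms (62.5%, against 30.4% of all tested genes). None was lower in both. 2 of these 8 passed through the P libraries alone, and 3 of the other 6 were higher in both arms. Foxa1, a pioneer factor of endoderm, had 95.7 CPM in P against 14 CPM in A with EPZ005687 and 49.2 CPM in P against 0 CPM in A with DMSO.

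Heart and smooth muscle genes had their larger median difference in the inhibitor arm. Of 24 listed, 14 were tested, 6 of them through the P libraries alone. 13 were higher in P in both arms, none was lower in both and 7 were at least 4-fold higher in both. Of the 8 that did not pass through P alone, 7 were higher in both arms and 1 at least 4-fold, and the called Actc1 and Tnni1 are not among them. The median log2 ratio was 3.62 with EPZ005687 and 2.34 with DMSO (3.81 and 3.11 with genes at 0 counts taken at the floor), and 2.01 and 1.32 without the members that passed through P alone.

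Actc1 codes for cardiac alpha-actin, the first actin of the heart tube. Its promoter window (RefSeq, GRCm38.p6, minus strand, chr2:114052826-114053125) is shown because it holds a CArG box, the letters that serum response factor is known to bind in muscle genes. The box is in capitals, and Actc1 was the 1 of the 18 genes with such a box, which 1.81% of the 27025 genes searched hold.
Actc1: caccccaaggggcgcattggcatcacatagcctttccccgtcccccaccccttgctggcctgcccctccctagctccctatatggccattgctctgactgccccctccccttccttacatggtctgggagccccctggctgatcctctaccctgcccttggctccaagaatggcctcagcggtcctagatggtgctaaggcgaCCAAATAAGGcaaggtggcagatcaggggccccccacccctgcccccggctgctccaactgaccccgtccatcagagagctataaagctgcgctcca
Actc1 (chromosome 2, 114047282 to 114052875) had 763 counts in P and 4 in A with EPZ005687 (351 CPM in P against 4.0 CPM in A), and 66 in P and 0 in A with DMSO (19.3 CPM in P against 0 CPM in A). It was higher in P by 114-fold with EPZ005687 and by at least 12.1-fold with DMSO (fitted log2 fold change 6.99, SE 1.14, edgeR adjusted p = 0.00711).

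Tnni1, the slow troponin I that the embryonic heart uses (chromosome 1, 135783033 to 135810989), had 181 CPM in P against 0 CPM in A with EPZ005687 and 22 CPM in P against 0.562 CPM in A with DMSO (log2 fold change 7.49, SE 1.40, edgeR adjusted p = 0.0168). It was at least 78.2-fold higher in P with EPZ005687, where A had 0 counts. Other parts of the sarcomere were given as values only: the light chain gene Myl3 had 154 CPM in P against 4.0 CPM in A with EPZ005687 and 3.52 CPM in P against 0 CPM in A with DMSO. Tnnt2, cardiac troponin T, had 117 CPM in P against 5.0 CPM in A in the inhibitor arm, and 6.45 CPM in P against 0.562 CPM in A in the solvent arm. Myl3 and Tnnt2 passed the filter through the P libraries alone, so they had to be low in A. P with EPZ005687 was the highest of the 4 libraries for these genes. Acta2, the actin of smooth muscle, was instead alike in the P libraries, at 178 CPM in P against 18 CPM in A with EPZ005687 and 187.5 CPM in P against 19.1 CPM in A with DMSO. Titin (Ttn) went opposite ways, with 507.5 CPM in P against 145 CPM in A and 48.3 CPM in P against 113 CPM in A.

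The factors that specify heart and lateral mesoderm differed less. Of 15 listed, 8 were tested and 5 were higher in P in both arms (62.5%, against 30.4% of all tested genes). 3 of the 8 passed through the P libraries alone, and 2 of the other 5 were higher in both arms. Gata4 had 46 CPM in P against 4.0 CPM in A with EPZ005687 and 24 CPM in P against 0 CPM in A with DMSO, while Tbx20 had 80.5 CPM in P against 13 CPM in A with EPZ005687 and 24.3 CPM in P against 27 CPM in A with DMSO. Gata4 serves visceral endoderm as well as heart. The median log2 ratio of the list was 2.43 with EPZ005687 and 0.28 with DMSO, so the solvent arm was near the median of all genes.

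Genes of the S100 family, small calcium-binding proteins, supplied 3 of the calls. Of 15 listed, 5 were tested and all 5 were higher in P in both arms, against 30.4% of all tested genes. S100a13 passed through the P libraries alone. S100g, calbindin-D9k of calcium-absorbing epithelia (chromosome X, 162961992 to 162964599), stood at 3228 CPM in P against 94 CPM in A with EPZ005687 and 299.7 CPM in P against 0.562 CPM in A with DMSO (log2 fold change 6.66, SE 1.13, edgeR adjusted p = 0.0093). S100a1, found in heart and other tissues (chromosome 3, 90511034 to 90514330), had 324 CPM in P against 11 CPM in A in the inhibitor arm and 284.5 CPM in P against 0.562 CPM in A in the solvent arm (log2 fold change 6.59, SE 1.05, edgeR adjusted p = 0.00711). S100a11 (chromosome 3, 93520496 to 93526288) had 288 CPM in P against 12 CPM in A with EPZ005687, and 16.4 CPM in P against 0 CPM in A with DMSO (log2 fold change 5.39, SE 1.05, edgeR adjusted p = 0.0247). The 2 members that were not called were S100a10, with 929.5 CPM in P against 32 CPM in A and 115 CPM in P against 32.6 CPM in A, and S100a13, with 25.3 CPM in P against 0 CPM in A and 20.5 CPM in P against 0 CPM in A. S100a1 and S100a13 are neighbours, and without strand their reads could be shared.

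Phlda2, Rhox5 and Trap1a belong to no common list and are described in turn. Phlda2, an imprinted gene expressed from the maternal copy that restrains placental growth (chromosome 7, 143501545 to 143503145), had 114 CPM in P against 5.0 CPM in A with EPZ005687 and 405 CPM in P against 15.7 CPM in A with DMSO. Its fold was 29.6 with EPZ005687 and 27.2 with DMSO, nearly the same in the 2 arms (log2 fold change 4.81, SE 0.87, edgeR adjusted p = 0.0134). Rhox5, an X-linked homeobox gene of extraembryonic tissue and testis (chromosome X, 37754608 to 37808878), had 313 CPM in P against 23 CPM in A with EPZ005687, and 442 CPM in P against 9.55 CPM in A with DMSO (log2 fold change 4.86, SE 0.89, edgeR adjusted p = 0.0134). Trap1a, an X-linked tumour antigen gene (chromosome X, 139333683 to 139338169), had 543 CPM in P against 21 CPM in A in the inhibitor arm and 149 CPM in P against 0 CPM in A in the solvent arm (log2 fold change 6.33, SE 1.08, edgeR adjusted p = 0.0093). In the ExE libraries, Phlda2 had 257 CPM with EPZ005687 and 373.5 CPM with DMSO, Rhox5 641 and 663, and Trap1a 371 and 345. For all 3 genes the A libraries were the lowest of the 6 RNA libraries.

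Among 32 tested imprinted genes of 38, 13 were higher in P in both arms (40.6%, against 30.4% of all tested genes) and 6 lower (18.8%, against 24.5%), and Phlda2 was the 1 called. Peg12 and Mkrn3, paternally expressed neighbours on chromosome 7, were lower in P without passing the test. Peg12 had 1.38 CPM in P against 41 CPM in A with EPZ005687 and 71.8 CPM in P against 779.6 CPM in A with DMSO, and Mkrn3 had 0 CPM in P against 16 CPM in A with EPZ005687 and 0 CPM in P against 34.8 CPM in A with DMSO. Both P libraries lay below their own A library for these genes. Mkrn3 passed the filter through the A libraries alone.

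The last 5 genes called higher were outside the rule for named genes and were chosen after their values were seen. Some list members named in other paragraphs were outside the rule too. Spink1, a secreted trypsin inhibitor, had 4836 CPM in P against 31 CPM in A with EPZ005687 and 336 CPM in P against 19.1 CPM in A with DMSO (log2 fold change 5.93, edgeR adjusted p = 0.0274). Dpp4, a surface peptidase, had 98.5 CPM in P against 12 CPM in A and 240.6 CPM in P against 2.81 CPM in A in the same order (log2 fold change 4.85, edgeR adjusted p = 0.0412). Flrt2, a membrane protein needed in the epicardium, had 242.5 CPM in P against 19.99 CPM in A with EPZ005687, and 63.6 CPM in P against 0 CPM in A with DMSO (log2 fold change 5.23, edgeR adjusted p = 0.0402). Pcbd1, an enzyme that recycles tetrahydrobiopterin, and Rnase4, a secreted ribonuclease whose locus overlaps Ang, completed the set. Pcbd1 had 296 CPM in P against 19.99 CPM in A with EPZ005687 and 46.6 CPM in P against 0.562 CPM in A with DMSO (edgeR adjusted p = 0.0247), and Rnase4 had 117 CPM in P against 8.0 CPM in A with EPZ005687 and 200.1 CPM in P against 6.74 CPM in A with DMSO (edgeR adjusted p = 0.0247).

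**Figure D3:**
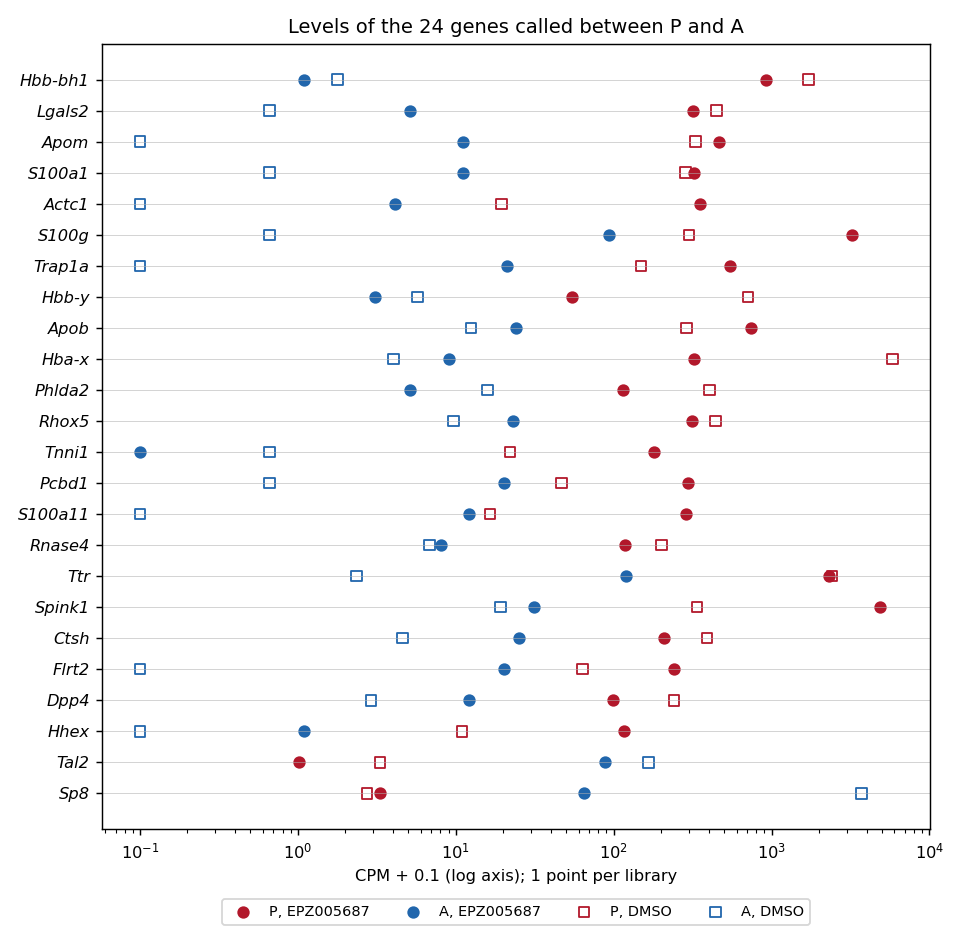
Points give the CPM (plus 0.1, log axis) of the 24 called genes, 1 point per library, P in red and A in blue, EPZ005687 as filled circles and DMSO as open squares. The genes were chosen for a difference between P and A, and the red and blue points of every gene are apart. Hba-x had 321 CPM in P with EPZ005687 and 5824 CPM in P with DMSO, and Sp8 and Tal2 at the foot have the blue points on the right.

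Fewer genes were lower in P, and the calls were 2 transcription factors. Sp8, a zinc finger factor of the anterior neural ridge and of limb ectoderm (chromosome 12, 118846288 to 118852578), had 7 counts in P and 65 in A with EPZ005687 (3.22 CPM in P against 65 CPM in A), and 9 in P and 6615 in A with DMSO (2.64 CPM in P against 3716 CPM in A). A with DMSO stood far above the other 3 libraries (log2 fold change -7.32, SE 1.55, edgeR adjusted p = 0.0479). Sp8 passed the filter through the A libraries alone, so its direction was largely set by the filter. Tal2, a basic helix-loop-helix factor of midbrain neurons (chromosome 4, 53779701 to 53788712), had 2 counts in P and 88 in A with EPZ005687, and 11 in P and 296 in A with DMSO (0.92 CPM in P against 88 CPM in A, and 3.22 CPM in P against 166 CPM in A). Its log2 ratio was -5.20 with EPZ005687 and -5.27 with DMSO, with counting intervals of -9.27 to -4.31 and -6.63 to -4.75 (log2 fold change -5.80, SE 1.01, edgeR adjusted p = 0.0105).

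Genes of neural and anterior ectoderm pointed the same way as Sp8. Of 28 listed, 14 were tested, with 3 passing through the A libraries alone and 1 through the P libraries alone. 12 were lower in P in both arms (85.7%, against 24.5% of all tested genes) and 1, the intermediate filament gene Nes, was higher in both. The 3 that passed through A alone had to be low in P, so their direction was largely set by the filter. They are included in this share, and no count without them was made. Sp8, among the 3 that passed through A alone, was the 1 called. Six3, a repressor needed for the forebrain, had 0.92 CPM in P against 7.0 CPM in A with EPZ005687 and 4.98 CPM in P against 190.4 CPM in A with DMSO. Fezf1, a forebrain zinc finger factor, had 0.46 CPM in P against 25 CPM in A with EPZ005687, and 0 CPM in P against 40.4 CPM in A with DMSO. Fezf1 too passed the filter through the A libraries alone. Sox2, the factor that maintains neural progenitors, had 4.6 CPM in P against 34 CPM in A in the inhibitor arm and 8.79 CPM in P against 30.9 CPM in A in the solvent arm.

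The median log2 ratio of the neural list was -1.42 with EPZ005687 and -3.35 with DMSO (-1.45 and -3.94 with genes at 0 counts taken at the floor). Members that passed the filter through the A libraries alone are included in these medians. In sum the list took 173 CPM in P against 567 CPM in A with EPZ005687 and 73 CPM in P against 4640.2 CPM in A with DMSO, of which Sp8 alone gave 3716 CPM in A with DMSO. Neuronal genes were sparse: 7 of 14 were tested and 4 were lower in P in both arms (57.1%, against 24.5% of all tested genes). Of these 7, 1 passed the filter through the A libraries alone. Stmn2, a tubulin regulator of growing axons, had 8.28 CPM in P against 35 CPM in A with EPZ005687 and 6.74 CPM in P against 249 CPM in A with DMSO.

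Further genes with the smallest p values among those lower in P did not pass the test and are given as values. Sfrp1, a secreted Wnt antagonist, had 26.7 CPM in P against 218 CPM in A with EPZ005687 and 68.6 CPM in P against 1588 CPM in A with DMSO (edgeR adjusted p = 0.119). Crabp2, which carries retinoic acid within cells, had 41 CPM in P against 294 CPM in A with EPZ005687, and 13.5 CPM in P against 189 CPM in A with DMSO (edgeR adjusted p = 0.168). Ptn, the heparin-binding growth factor pleiotrophin, stood at 29 CPM in P against 148 CPM in A in the inhibitor arm and 4.39 CPM in P against 166 CPM in A in the solvent arm. In each of these 3 genes the P libraries were below both A libraries. The same held for Lpar4, a lysophosphatidic acid receptor gene (0.46 CPM in P against 38 CPM in A, and 6.15 CPM in P against 125 CPM in A), Chst2, a sulfotransferase gene (8.28 CPM in P against 135 CPM in A, and 24.6 CPM in P against 179 CPM in A), and Ildr2 (0.46 CPM in P against 69 CPM in A, and 3.52 CPM in P against 45.5 CPM in A).

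**Figure D4:**
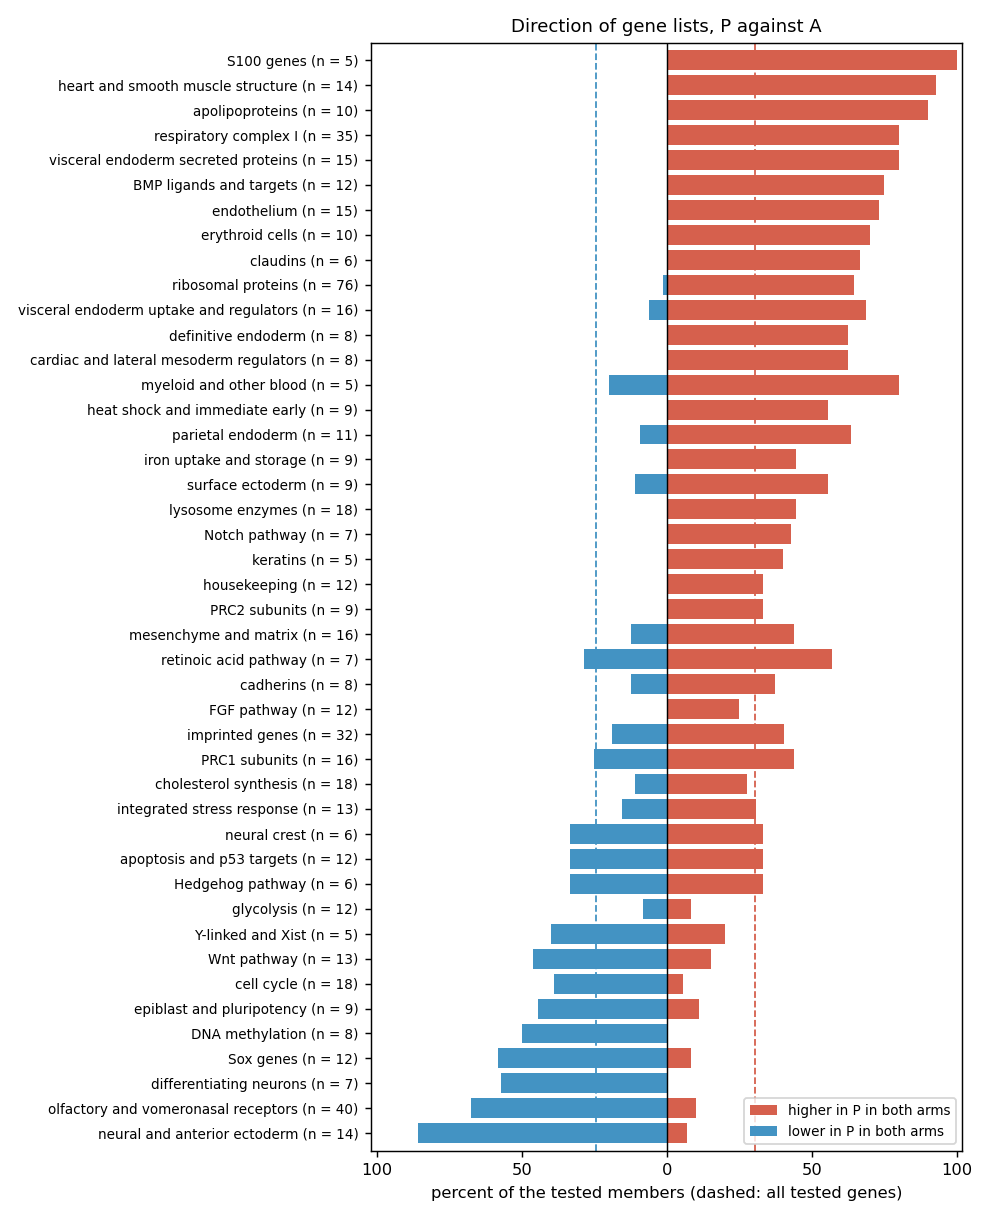
Bars are drawn for each gene list with 5 or more tested members. They give the percent of tested members higher in P in both arms (red, right) and lower in P in both arms (blue, left). Dashed lines mark 30.4% and 24.5%, the shares over all tested genes. Members that passed the filter through P alone or through A alone are included. S100 genes, heart and smooth muscle genes and apolipoproteins reach farthest right, and the neural and anterior ectoderm list reaches farthest left.

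Signalling lists were mixed. BMP, which patterns posterior and extraembryonic mesoderm, is read here through 16 genes. 9 of 12 tested members were higher in P in both arms (75%, against 30.4% of all tested genes), 0 were lower and none was called. Of the 12, 4 passed the filter through the P libraries alone. Of the other 8, 5 were higher in both arms. The target gene Id2 had 658 CPM in P against 159.9 CPM in A with EPZ005687 and 328 CPM in P against 22.5 CPM in A with DMSO (edgeR adjusted p = 0.168). The ligand gene Bmp4 had 25 counts in P and 3 in A with EPZ005687, and 27 in P and 0 in A with DMSO. Id3, another target, went opposite ways, with 165 CPM in P against 423 CPM in A and 46.3 CPM in P against 28.1 CPM in A. The list's median log2 ratio was 1.92 with EPZ005687 and 1.81 with DMSO. Without the members that passed through P alone it was 1.56 with EPZ005687 and 0.87 with DMSO. Over all genes taken in the same way it was -0.05 and 0.03.

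In the Wnt list, 6 of 13 tested genes were lower in P in both arms (46.2%, against 24.5% of all tested genes) and 2 higher (15.4%, against 30.4%). The lower ones included the antagonists Sfrp1, Sfrp2 and Frzb. Wnt3, Wnt3a and Axin2 did not pass the filter. Of 12 tested FGF genes, 9 had opposite signs, 8 of them higher in P with EPZ005687 alone. Etv5, an FGF-induced factor, had 52.9 CPM in P against 6.0 CPM in A with EPZ005687 and 37.2 CPM in P against 64.6 CPM in A with DMSO.

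Genes that every cell uses were not level between the pieces, and the lists differed in which arm had the larger median. Ribosomal protein genes summed to 143570.0 CPM in P against 60236 CPM in A with EPZ005687 and to 33719 CPM in P against 30522 CPM in A with DMSO. Their median log2 ratio over 76 tested genes was 2.21 with EPZ005687 and 0.18 with DMSO. Respiratory complex I genes had medians of 2.12 and 0.81, with 28 of 35 higher in P in both arms (80%, against 30.4% of all tested genes) and none called. Cell cycle genes had medians of -1.32 and 0.18, and glycolysis genes of -0.41 and 1.06. The housekeeping list of 12 genes had medians of -0.18 and 0.31. P with EPZ005687 was also the library with the most Rn45s (above). With ribosomal protein genes, Rn45s and Lars2 left out before scaling, 24 genes were called higher and 2 lower, among them all 24 above.

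Ezh2 itself, the target of the inhibitor, had 189.6 CPM in P against 222 CPM in A with EPZ005687 and 320.2 CPM in P against 449 CPM in A with DMSO. From scaled CPM, its log2 ratio P over A was 0.15 with EPZ005687 and -0.41 with DMSO. The arms thus had opposite signs after scaling, and the sign with EPZ005687 depended on the scaling. Of the PRC2 subunit genes, 9 were tested and none was called. Their median log2 ratio was 0.25 with EPZ005687 and 0.06 with DMSO, and both medians were below 0 with library totals as the scaling. Whether the P over A difference of a gene changed with the inhibitor could not be tested, since each region and arm has 1 library.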

How the data were processed

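RNA was measured in 6 libraries of cultured mouse embryo explants, and the 4 from P and A were compared; 54 samples of other assays (ChIP of H3K27me3 with its input, and bisulfite sequencing) were not analysed here. The authors deposited 1 table of whole-number read counts per gene and library, not normalized, as the values show. CASAVA 1.8, TopHat2 2.0.9 and BWA with the build mm10 are named in the submitters' processing notes. For the counting tool, annotation and strand setting nothing is stated in the sources used here. Of 23154 entries, 27 carried dates in place of symbols and were left out; they held at most 0.961% of a library's counts. Of the other 23127, 23009 (99.5%) matched RefSeq GRCm38.p6, which gave coordinates and promoters.

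TMM scaling preceded a quasi-likelihood test (edgeR 4.0.16, R 4.3.3), 2-sided, with region and treatment as terms and 1 residual degree of freedom. A gene needed 10 counts in 2 or more libraries, and p-values were adjusted by Benjamini-Hochberg over all genes tested. SE is the log2 fold change divided by the root of the F statistic. CPM are counts per 1000000 of the library's total. Log2 ratios within an arm came from scaled CPM after adding a prior count of 2. Their 95% intervals are conditional exact binomial ones and cover counting error only. A library at 0 counts was taken at a floor of 3 counts in that library. A fold given as at least a value uses this floor, and its counting interval can start lower. The script was tested on simulated data.

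Members and 52 gene lists were chosen with earlier results of these data known. Named genes were, per direction, the 12 smallest p-values among genes called, with a mean CPM of 5 or more, filled up with the next smallest as values. Added were up to 4 genes per list, 14 genes always given, and the 6 largest opposite-signed ratios per direction among genes with 100 or more counts. Some list members were named outside this rule, with their values known. Among them are Gfi1b, Dab2, Lrp2, Foxa1, Myl3, Tnnt2, Acta2, Ttn, S100a10, S100a13, Nes, Sfrp2 and Frzb. Predicted genes and receptor families were not named. Alternatives were DESeq2 1.42.0, limma-voom (limma 3.58.1), other scalings, filters, prior counts and blocks, and leaving out each library.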

Additional observations from a re-analysis of the deposited data

Results flagged for a closer look

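Several genes named above moved one way in P against A with EPZ005687 and the opposite way with DMSO. The difference between the arms was not tested, since each region and arm has 1 library, and 45.1% of all tested genes have opposite signs. Each value is the log2 ratio P over A with EPZ005687 minus that with DMSO.

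Among streak markers, the difference was -6.17 for T, 4.27 for Eomes and 6.52 for Cdx2, and the median of the 3 tested genes differed by 4.27. The trophoblast list, which shares Eomes and Cdx2 with it, had a median difference of 3.94 over 4 tested genes.

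Higher in P with EPZ005687 and lower in P with DMSO were Edn1, the vasoconstrictor endothelin precursor (7.45), and Rbfox3, the neuronal splicing factor NeuN (6.58). Edn1 had 35.4 CPM in P against 3.0 CPM in A with EPZ005687 and 8.79 CPM in P against 159.5 CPM in A with DMSO, and Rbfox3 had 73.2 CPM in P against 8.0 CPM in A with EPZ005687 and 1.17 CPM in P against 19.1 CPM in A with DMSO. The muscle ubiquitin ligase gene Trim55 differed by 6.53, the Polycomb-related gene L3mbtl1 by 5.94, the cilium gene Ttc30b by 5.81 and the protease inhibitor gene Wfikkn1 by 5.56.

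The reverse held for Nek6, a mitotic kinase gene (-8.62), and Aplnr, the apelin receptor gene of early mesoderm (-8.32). Nek6 had 3.22 CPM in P against 95 CPM in A with EPZ005687 and 18.8 CPM in P against 0 CPM in A with DMSO, and Aplnr had 1.38 CPM in P against 54 CPM in A with EPZ005687 and 14.7 CPM in P against 0 CPM in A with DMSO. Trp53rka differed by -8.12, the hyaluronidase gene Hyal2 by -7.88, the mitochondrial gene Chchd6 by -7.51 and the telomere gene Acd by -7.24. Among listed genes the serine synthesis enzyme gene Phgdh differed by -7.70, the ferritin light chain gene Ftl1 by -4.66 and the chaperone gene Dnajb1 by -4.09. In A with DMSO, Nek6, Aplnr, Trp53rka and Hyal2 were at 0 counts.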

How the results depend on the processing

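No paired analysis was possible by replicate number because each region and arm has 1 library; P and A were paired by arm, as the block of the test. Against 22 genes higher and 2 lower, the counts stayed at 22 and 2 with the DESeq2 size factors and at 24 and 2 without ribosomal genes and Lars2. They were 68 and 5 with no filter on low counts, 124 and 23 with DESeq2, 50 and 18 with limma-voom, and 1 and 0 with library totals. With a filter of 20 counts, without the treatment block and with all 6 RNA libraries in the fit, 0 genes were called in either direction in edgeR. The smallest adjusted p was then 0.132, 0.684 and 0.167, with 362, 386 and 549 genes higher and 130, 134 and 145 lower at an unadjusted p under 0.05. Leaving out 1 library at a time from the wider fit gave 0 called genes in each direction (smallest adjusted p 0.119 without A EPZ005687, 1.0 without A DMSO), with 238 to 833 genes higher and 55 to 164 lower unadjusted; the fit then assumes that a lone library varies like the others. The cause of these losses was not tested. The 34 genes followed had been chosen for one sign in both arms and a small p in these same libraries. All kept their direction in every setting that gave a value, which is therefore not a test of direction. Of 400 recomputed list medians, 345 moved by less than the SD of the 2 arms and 11 changed sign, 7 of them with library totals. At this depth a gene at 0 counts in A is limited to 3 counts, 1.69 CPM with DMSO and 3.0 CPM with EPZ005687.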

Other observations

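Genes on the X chromosome were numerous among those far higher in P, a pattern chosen after the values were seen and given without a test. Of 438 tested X-linked genes, 23 were at least 4-fold higher in P in both arms (5.25%), against 307 of 11369 autosomal genes (2.70%). Without genes that passed the filter through the P libraries alone, these were 13 of 410 (3.17%) and 109 of 10563 (1.03%). At least 4-fold lower were 6 X-linked genes (1.37%) and 138 autosomal ones (1.21%). The 23 include S100g, Trap1a and Rhox5 described above. Cited1, a transcriptional coregulator of placenta, had 105 CPM in P against 12 CPM in A with EPZ005687 and 164 CPM in P against 0 CPM in A with DMSO. Plac1, a trophoblast gene, had 42.3 CPM in P against 1.0 CPM in A with EPZ005687, and 14.1 CPM in P against 1.12 CPM in A with DMSO. Xlr4b, from an imprinted X-linked family of near copies, had 76.8 CPM in P against 5.0 CPM in A in the inhibitor arm and 58.6 CPM in P against 7.3 CPM in A in the solvent arm. In the ExE libraries Cited1 had 181 CPM with EPZ005687 and 235 CPM with DMSO, Plac1 32.6 and 29.9, and Xlr4b 75.7 and 73.8. The median log2 ratio of all tested X-linked genes was 0.33 with EPZ005687 and 0.18 with DMSO, against 0.05 and 0.15 for autosomal genes.

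Olfactory and vomeronasal receptor genes, which are not known for a role in the embryo at this age, leaned the other way. Of 1436 in the table, 40 were tested and none was called. In both arms 27 were lower in P (67.5%, against 24.5% of all tested genes) and 4 higher (10%, against 30.4%). All 4 higher ones passed the filter through the P libraries alone. Another 4 of the 40 passed through the A libraries alone, so their direction was largely set by the filter. Reads of all 1436 genes summed to 1172 CPM in P against 2741 CPM in A with EPZ005687. With DMSO they summed to 783 CPM in P against 3081 CPM in A. Olfr613 had 126.5 CPM in P against 567 CPM in A with EPZ005687 and 87.3 CPM in P against 293 CPM in A with DMSO, and Vmn1r58 had 46 CPM in P against 176 CPM in A with EPZ005687 and 35.5 CPM in P against 138 CPM in A with DMSO. The A libraries were the shallower ones of their arms, and the part of depth in this was not tested.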
